A study of Mus musculus with 4 samples.

Results

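The nuclei described here are the 60 nuclei of mouse prefrontal cortex with the strongest joint signal for Enpp6, Bcas1, Gpr17 and Itpr2, 4 genes used as markers of committed oligodendrocyte precursors. Filters on detected genes (500 or more), on UMIs (unique molecular identifiers, each a counted RNA molecule; 800 or more) and on the mitochondrial share of UMIs (5% or less) left 13270 of 22402 barcodes. Each kept nucleus was scored by the mean log level of the 4 markers minus the mean log level of Pdgfra and Mog, and the 60 highest scores among 637 nuclei with at least 2 of the 4 markers detected were taken. They made up 0.452% of the kept nuclei, a share that follows from the fixed number of 60 and does not measure how common such nuclei were. They were compared with 325 kept nuclei with at least 2 Pdgfra UMIs (the Pdgfra nuclei, precursor side) and with 1061 kept nuclei with at least 2 UMIs of Mog and Mag together (the Mog+Mag nuclei, mature side).

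The tissue was medial prefrontal cortex of C57BL/6J mice aged 9 weeks, taken 24 hours after an injection of DOI, a psychedelic agonist of serotonin 2 receptors, or of saline. Every animal expressed scFLARE2, a light- and calcium-gated tagging system, with its reporter TRE-mCherry-p2a-bReaChES. There was 1 DOI sample and 1 saline sample of each sex. Barcodes of the pooled count matrix end in 1 of 4 library numbers that no label ties to a sample, so neither DOI with saline nor the sexes could be compared, and the matrix was treated as 1 sample without tests or p-values. The labels do not say whether a sample was 1 animal or several.

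Oligodendrocyte precursors are dividing glia that persist in the adult cortex and carry the growth factor receptor Pdgfra. Some leave division and pass through a short committed stage, marked in mice by the receptor Gpr17, and then a newly formed stage in which the cell spreads processes and switches on myelin genes such as Mbp. Mature oligodendrocytes then add late genes such as Mog, Opalin and Aspa.

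The 4 marker genes and the 2 genes subtracted chose these nuclei, so their levels are a description only. Bcas1, a protein of early myelinating cells, and Itpr2, a calcium release channel, had a UMI in 60 of 60 members, and Enpp6, a choline phosphodiesterase, in 59. Gpr17 had a UMI in 28 of 60 members (46.7%, exact binomial 95% interval 33.67 to 60.004%), against 77 of 325 Pdgfra nuclei (23.7%) and 33 of 1061 Mog+Mag nuclei (3.11%). In the other nuclei with over 2 UMIs of the neuronal gene Rbfox3, where Gpr17 RNA is not expected, 1.68% had a UMI at a higher median depth (12251 UMIs, against 5395.5 in members). Pdgfra and Mog, which the score subtracts, had a UMI in 0 and 6 members. Scores ran down to 2.0958, 2.0741 and 2.0690 for the last members inside the threshold, and the next nuclei outside had 2.0617, 2.0589 and 2.0366, so there was no gap at the threshold.

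Gpr17 was not detected in 32 members, but it was a gene of the rule and had only 54 UMIs in all members. After thinning to 1000 UMIs per nucleus, it had a UMI in 8.33% of members, 6.77% of Pdgfra nuclei and 0.754% of Mog+Mag nuclei. Whether the committed label was met was therefore not read from Gpr17. Genes known from the newly formed stage were detected in nearly every member: the transcription factor Tcf7l2 in 56, the long noncoding RNA 9630013A20Rik in 59, and the kinase Fyn in 60. Mbp was detected in 58, whereas the late gene Opalin was detected in 2. In the deeper nuclei with over 2 Rbfox3 UMIs (median 12251 UMIs, against 5395.5 in members), Tcf7l2 had a UMI in 1.30%, 9630013A20Rik in 39.2%, Fyn in 69.3% and Mbp in 63.2%. With each nucleus thinned to 1000 UMIs, the shares for Tcf7l2, 9630013A20Rik, Fyn and Mbp were 85, 75, 93.3 and 88.3% of members, against 0.309, 6.17, 7.72 and 12.5% of the neuronal nuclei. The set is therefore called here by its leading genes, the Enpp6/Bcas1 nuclei, or the members.

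Libraries 1 to 4 held 20, 9, 10 and 21 members. These were 0.465, 0.253, 0.627 and 0.550% of their kept nuclei, and the exact binomial intervals of the lowest share (0.116 to 0.480%) and the highest share (0.301 to 1.15%) overlapped. Of the members and both comparison classes together, the members were 4.18, 2.56, 3.51 and 6.33% in libraries 1 to 4. Median depth was 5395.5 UMIs in members, 4161 in Pdgfra nuclei and 3165 in Mog+Mag nuclei, and the median mitochondrial share was 2.57, 2.37 and 2.69%. No member had a doublet score above 0.25, against 6 Pdgfra nuclei and 57 Mog+Mag nuclei. The median doublet score was nevertheless higher in members, at 0.0579, against 0.0042 in Pdgfra nuclei and 0.0095 in Mog+Mag nuclei. Of the 50 barcode sequences that occurred in more than 1 library, 1 belonged to a member, and no 2 members shared one. There were 25 members that also had 2 or more UMIs of Mog and Mag together, and these were counted as members only.

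Neuronal RNA differed between the classes and bears on every statement that a gene was lower in members. Over 2 Rbfox3 UMIs were present in 0 members, 20 Pdgfra nuclei and 129 Mog+Mag nuclei. Without these nuclei the Pdgfra nuclei held 1342958 of their 1646828 UMIs, and the Mog+Mag nuclei 3315134 of their 5398655. The summed level of 7 general neuronal markers was 1274 CPM (UMIs per 1000000 UMIs of the class) in members (939.6 to 1484 across libraries), against 6771 CPM in Pdgfra nuclei (4856 to 9015) and 10576 CPM in Mog+Mag nuclei (7133 to 13652), and no marker of the list was at 0 in any class. The 9 excitatory markers summed to 595, 856 and 1291 CPM in members, Pdgfra nuclei and Mog+Mag nuclei, and the 12 astrocyte markers to 368, 981 and 819 CPM. The 10 inhibitory markers summed to 2739, 3166 and 1750 CPM, of which Erbb4, a neuregulin receptor that precursors also express, gave 2434 CPM in members. Of 11 endothelial and mural markers 9 were at 0 in members, and of 8 fibroblast and leptomeningeal markers 7 were. The 8 fibroblast and leptomeningeal markers summed to 2.99 CPM in members, 141 CPM in Pdgfra nuclei and 11.7 CPM in Mog+Mag nuclei, against 18.3 CPM in the other kept nuclei. Whether the Pdgfra nuclei include cells outside the oligodendrocyte lineage was not tested. Each comparison was therefore repeated without nuclei over 2 Rbfox3 UMIs, an alternative added after the data were seen, and its values are given wherever it ended a call.

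Members were read against each class by summed UMIs. A gene was tested when the members held at least 20 of its UMIs or would at the other class's level, and was called at a difference of at least 2-fold with the same direction in 4 of 4 libraries. The call goes by size and involves no test, and intervals cover counting error only. Against Pdgfra nuclei 514 of 3920 genes were called higher (13.1%) and 858 lower (21.9%). Against Mog+Mag nuclei 525 of 3913 were called higher (13.4%) and 836 lower (21.4%). Of 3553 genes tested in both, 344 were higher than in both classes (9.68%) and 443 lower than in both (12.5%), while 10 were higher than in Pdgfra nuclei and lower than in Mog+Mag nuclei and 14 the other way round. Both comparisons share the members, so these overlaps are a description. Without the nuclei over 2 Rbfox3 UMIs 296 genes were higher than in both, 279 of them among the 344, and 223 were lower than in both, 202 of them among the 443. Without library 4, which held 21 members, 285 genes were lower than in both. With the mitochondrial limit at 1%, the rule chose 60 nuclei of which 10 were among these members and 22 had over 2 Rbfox3 UMIs, and 27 of the calls on named genes changed sign, among them Tnr (log2 -0.25) and Neu4 (-0.64) against Pdgfra nuclei. Because the members were chosen on 6 genes of these same nuclei, nothing is read from the size of these shares.

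**Figure D1:**
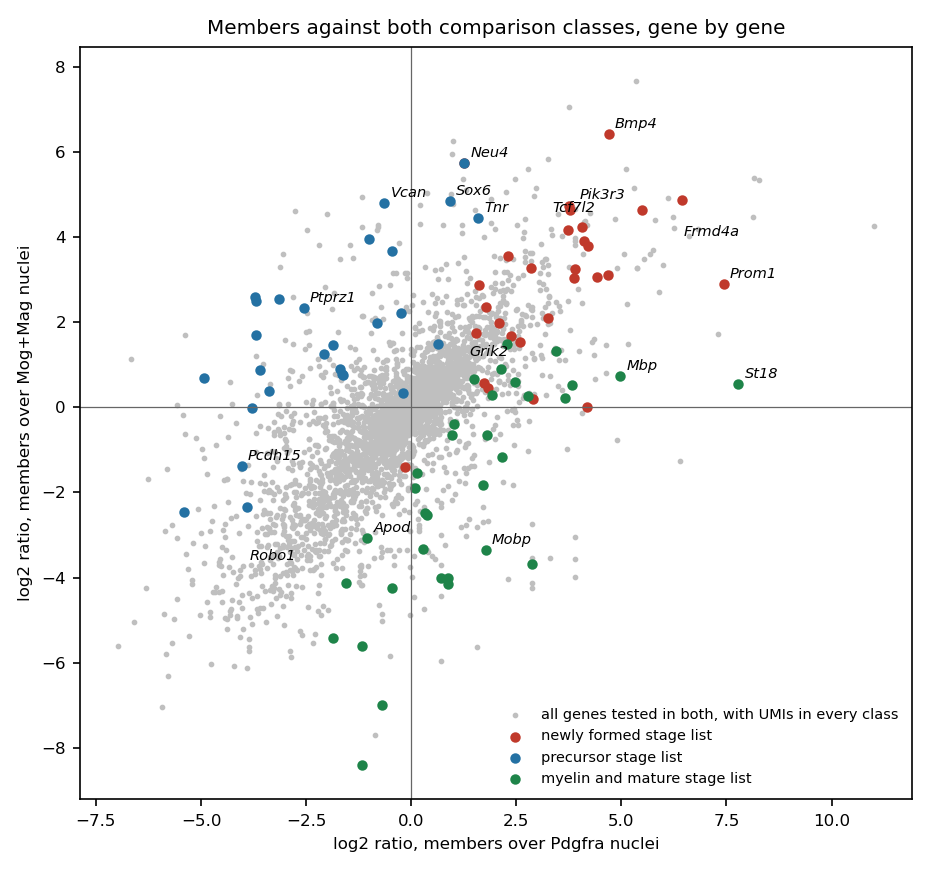
Log2 ratio of members over Pdgfra nuclei (x axis) and of members over Mog+Mag nuclei (y axis) for genes tested in both comparisons with UMIs in all 3 classes; each point is 1 gene, and genes of 3 stage lists are coloured (Neu4, on 2 lists, is drawn in the precursor colour). Newly formed stage genes lie to the upper right, precursor genes mostly to the upper left, and myelin genes mostly to the right of the vertical line, spread from above the horizontal line (Mbp) to far under it (Mobp).

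Frmd4a, which encodes a FERM-domain scaffold protein at cell junctions, stood out in level. Frmd4a had 21633, 17324, 23327 and 19590 CPM in members of libraries 1 to 4, against 246.5, 122.3, 188.8 and 440.6 CPM in Pdgfra nuclei and 1038, 678.7, 1065 and 862.5 CPM in Mog+Mag nuclei. It made up 2.05% of all UMIs of the members, against 0.0275% in Pdgfra nuclei and 0.0924% in Mog+Mag nuclei. All 4 libraries of the members lay far above all libraries of both classes, a 74.6-fold difference from Pdgfra nuclei (log2 6.22, 95% counting interval 6.08 to 6.36) and a 22.2-fold difference from Mog+Mag nuclei (log2 4.47, 4.42 to 4.53). Without library 4 the log2 ratio of Frmd4a to Pdgfra nuclei was 6.84. Frmd4a had a UMI in 57 of 60 members and in 98.9% of the deeper nuclei with over 2 Rbfox3 UMIs. In the other 11824 kept nuclei, of which 6483 had over 2 Rbfox3 UMIs, Frmd4a had 1086 CPM.

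Frmd4a lies on chromosome 2, positions 4017717 to 4614043 of mm10, plus strand. Of the 20 genes higher than both classes by the largest margin, 4 are predicted genes inside it: Gm13187 (positions 4287595 to 4301167) on the opposite strand, Gm36988 (4316479 to 4318886), annotated as sense intronic, and Gm13175 and Gm13179, both antisense. Gm13187 had 3190 CPM in members, against 10.3 CPM in Pdgfra nuclei and 78.7 CPM in Mog+Mag nuclei. Reads of overlapping genes may not be separable, so these 4 are not counted as independent of Frmd4a. In all, 8 of the 9 genes with predicted or clone names among the 20 overlapped another of the 20 (Frmd4a, Enpp6 or Tmem108), and the other, Gm16364, lies opposite Fyn. Among the 344 genes, 82 overlapped another of them.

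The others of the 20, besides Frmd4a and Enpp6 of the rule, were Kif19a (a kinesin), Bmp4, Pik3r3 (a regulatory subunit of PI3 kinase), Parvb (an actin-binding adaptor of integrins), Epb41l2 (a membrane skeleton protein), Col9a1 (a type IX collagen chain), Fam163a, Tmem108 and Tcf7l2. Without library 1 too few UMIs were left for the calls on Col9a1. Pik3r3 had 5145, 2973, 5876 and 3599 CPM in members, against 84.0, 101.9, 129.2 and 85.7 CPM in Pdgfra nuclei and 186.4, 155.4, 194.7 and 163.6 CPM in Mog+Mag nuclei. Parvb had 498.6, 514.6, 626.4 and 457.8 CPM in members, against 5.42, 0, 0 and 1.71 CPM in Pdgfra nuclei and 21.5, 19.3, 39.7 and 15.7 CPM in Mog+Mag nuclei. For both genes no library of a comparison class reached the lowest library of the members. Tmem108 averaged 4302 CPM in members, against 248 CPM in Pdgfra nuclei and 210 CPM in Mog+Mag nuclei. Epb41l2 had 1875 CPM in members, against 65.0 and 88.2 CPM in the Pdgfra and Mog+Mag nuclei.

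Genes of the committed and newly formed stage that the rule did not use were higher almost as a block. The members were chosen on other markers of that stage, and the list was written with earlier results of these data known. The counts are therefore a description and no independent support for the stage. Against Pdgfra nuclei 25 of 28 tested were higher and none lower, with a median log2 ratio of 3.74, beside -0.06 over all genes tested. Against Mog+Mag nuclei 22 of 29 were higher and 1, the collagen receptor Ddr1, was lower, with a median of 3.05, beside -0.01 over all genes tested. Both calls held for 21 genes. Of all genes tested, 13.1% were higher than in Pdgfra nuclei and 13.4% higher than in Mog+Mag nuclei. Strn, Frmd4b, Prickle1 and Plekha1 were higher than in Pdgfra nuclei and within 2-fold of Mog+Mag nuclei. Without the nuclei over 2 Rbfox3 UMIs the counts were 25 of 28 and 21 of 29.

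Tcf7l2, a Wnt pathway transcription factor of newly formed cells, had 2924, 2573, 2968 and 1910 CPM in members, against 160, 153, 202 and 115 CPM in Pdgfra nuclei and 171, 137, 188 and 51.9 CPM in Mog+Mag nuclei (16.6-fold and 18.9-fold higher in members). Fyn, a Src family kinase that acts in oligodendrocyte differentiation, had 3502, 2782, 4012 and 3481 CPM in members, against 214, 296, 255 and 254 CPM in Pdgfra nuclei and 149, 139, 173 and 114 CPM in Mog+Mag nuclei. Groups of libraries did not overlap for either gene. 9630013A20Rik, on chromosome 14 on the opposite strand to Pcdh17, averaged 2583 CPM in members, against 139 and 186 CPM in the Pdgfra and Mog+Mag nuclei.

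Nfasc, which encodes the axon contact protein neurofascin, averaged 5516 CPM in members, against 214 CPM in Pdgfra nuclei and 643 CPM in Mog+Mag nuclei. The deacetylase gene Sirt2 had 1244 CPM in members, against 85.6 and 151 CPM in the Pdgfra and Mog+Mag nuclei, and the tensin gene Tns3 had 2422, against 182 and 136 CPM. Ust, a sulfotransferase, was at 2514 CPM in members, against 187 and 95.4 CPM in the Pdgfra and Mog+Mag nuclei. At lower levels, Prom1 had 105 CPM in members, against 0.607 CPM in Pdgfra nuclei and 14.1 CPM in Mog+Mag nuclei, with a UMI in 11 members.

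Bmp4 and Neu4, genes known from the committed stage, were higher too. Bmp4, a secreted ligand, had 215, 172, 59.7 and 205 CPM in members, against 13.5, 2.55, 3.31 and 6.86 CPM in Pdgfra nuclei and 1.79, 0, 4.61 and 1.81 CPM in Mog+Mag nuclei, with a UMI in 31 members. Neu4, a sialidase, had 283, 152, 224 and 245 CPM in members, against 103, 76.5, 123 and 99.4 CPM in Pdgfra nuclei and 5.38, 4.06, 6.46 and 2.41 CPM in Mog+Mag nuclei. The libraries of the members lay above all others for both genes, by 2.39-fold for Neu4 against Pdgfra nuclei (log2 interval 0.85 to 1.65).

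**Figure D2:**
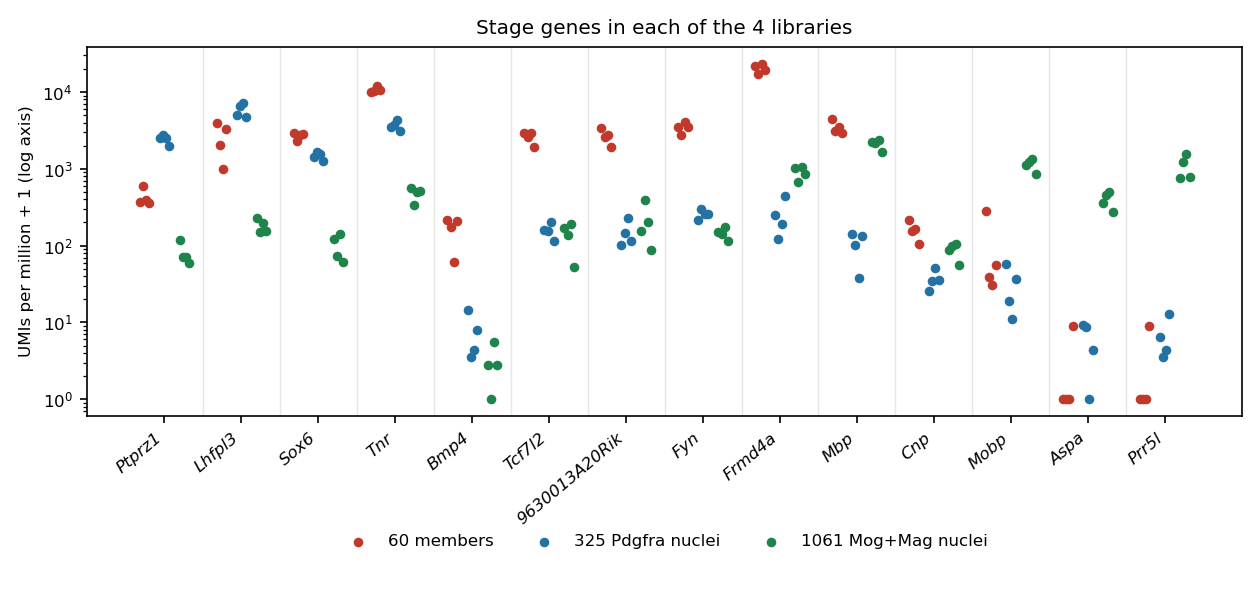
Level in CPM plus 1 (log axis) of 14 stage genes in each of 4 libraries (1 point each, left to right within a group) for members, Pdgfra nuclei and Mog+Mag nuclei. Tcf7l2, 9630013A20Rik, Fyn and Frmd4a are highest in members in every library, Ptprz1 and Lhfpl3 are highest in Pdgfra nuclei, and Mobp, Aspa and Prr5l are highest in Mog+Mag nuclei.

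Most precursor genes were lower than in Pdgfra nuclei, by very different amounts. Against Pdgfra nuclei 18 of 27 tested were lower and 2, Neu4 and Tnr, were higher (median log2 -1.87). Against Mog+Mag nuclei 11 of 17 were higher and 2, Pcdh15 and Kcnip3, were lower (median 1.97). Over all genes tested, 13.1% were higher and 21.9% lower than in Pdgfra nuclei, and 13.4% and 21.4% than in Mog+Mag nuclei. With nuclei over 2 Rbfox3 UMIs left out, neither Pcdh15 (log2 -0.39) nor any other gene of the list was lower than in Mog+Mag nuclei, and 13 of 16 were higher.

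Pcdh15, a protocadherin, had 45.3, 324, 403 and 150 CPM in members, against 3177, 3703, 3856 and 2769 CPM in Pdgfra nuclei. Ptprz1, a receptor phosphatase, had 374, 591, 388 and 355 CPM in members, against 2481, 2773, 2554 and 1965 CPM in Pdgfra nuclei and 116, 71.1, 69.2 and 57.9 CPM in Mog+Mag nuclei. Ptprz1 thus stood between both classes in every library. The proteoglycan gene Cspg4 (NG2) was at 17.9 CPM in members, against 231 CPM in Pdgfra nuclei. Lnx1, a ubiquitin ligase, had 2 UMIs in members (5.98 CPM), against 253 CPM in Pdgfra nuclei, a ratio on the log2 scale of -5.40 (-8.45 to -3.54). Cdo1, cysteine dioxygenase, was at 0 in members, at least 13.9-fold lower than the 124 CPM of Pdgfra nuclei (floor of 3 UMIs over all members).

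Other precursor genes were higher than in Pdgfra nuclei or within 2-fold of them. Tnr, which encodes the matrix protein tenascin-R, had 10040, 10291, 12036 and 10655 CPM in members, against 3499, 3677, 4352 and 3093 CPM in Pdgfra nuclei and 557, 341, 498 and 508 CPM in Mog+Mag nuclei. It was thus 3.01-fold higher than in Pdgfra nuclei and 21.8-fold higher than in Mog+Mag nuclei. Sox6, a transcription factor of precursors, had 2890, 2306, 2744 and 2849 CPM in members, against 1444, 1662, 1550 and 1279 CPM in Pdgfra nuclei and 119, 73.1, 139 and 59.8 CPM in Mog+Mag nuclei. Every library of the members was above every Pdgfra library for Sox6, but the 1.89-fold difference stayed under the 2-fold limit. Vcan (versican), Dscam, Luzp2 and Shc4 were within 2-fold of Pdgfra nuclei and higher than in Mog+Mag nuclei, with Vcan at 559 CPM in members, against 871 and 20.2 CPM in the Pdgfra and Mog+Mag nuclei.

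Myelin genes formed an early set near the mature level and a late set far under it. Against Pdgfra nuclei 14 of 20 tested were higher and 1, Apod, was lower (median log2 2.03). Against Mog+Mag nuclei 19 of 33 were lower and 2, the connexin gene Gjc3 and the choline transporter gene Slc44a1, were higher (median -1.82). The shares over all genes were 13.1% higher and 21.9% lower against Pdgfra nuclei, and 13.4% and 21.4% against Mog+Mag nuclei. Without the nuclei over 2 Rbfox3 UMIs the Mog+Mag level of myelin genes was higher: 23 of 35 were then lower in members and 0 higher (median -2.49), with Gjc3 at log2 0.89 and Slc44a1 at 0.86. The call on Apod against Pdgfra nuclei also ended, at log2 -1.05, since its direction no longer held in all 4 libraries, and it ended without any 1 library (log2 -0.67 to -2.10).

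Mbp, the main myelin basic protein gene, had 4488, 3087, 3475 and 2889 CPM in members, against 141, 102, 36.4 and 134 CPM in Pdgfra nuclei and 2246, 2190, 2372 and 1670 CPM in Mog+Mag nuclei. Members were thus at 166% of the Mog+Mag level, or 1.66-fold, under the limit for a call; the log2 ratio was 0.73 and became 0.14 without the nuclei over 2 Rbfox3 UMIs. St18, a zinc finger transcription factor, had 2742, 3392, 2834 and 2226 CPM in members, against 19.0, 20.4, 0 and 8.57 CPM in Pdgfra nuclei and 1588, 2337, 2441 and 1348 CPM in Mog+Mag nuclei. Cnp, Cldn11 and the myelin lipid enzymes Ugt8a and Fa2h stood at 185, 144, 122 and 121% of the Mog+Mag level, and at 126, 95.6, 79.4 and 78.5% of it without the nuclei over 2 Rbfox3 UMIs.

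The late set was at a small part of the mature level. Prr5l had 1 UMI in all members (2.99 CPM), against 751, 1228, 1564 and 771 CPM in libraries 1 to 4 of Mog+Mag nuclei, a ratio on the log2 scale of -8.40 (counting interval -13.70 to -5.92). Aspa, which cleaves N-acetylaspartate, also had 1 UMI, against 378 CPM in Mog+Mag nuclei (log2 -6.98, -12.29 to -4.50). Both UMIs were in library 4, and without it Prr5l and Aspa were at 0 in members, at a log2 ratio of at most -6.27 and -4.87 (floor of 3 UMIs). Mobp, a compact myelin gene, had 283, 38.1, 29.8 and 55.3 CPM in members, against 1116, 1211, 1343 and 851 CPM in Mog+Mag nuclei, 9.81% of the mature level. Library 1 was the highest for Mobp in members and still under every Mog+Mag library; it held 25 of the 36 Mobp UMIs of the members, 19 of them in 1 nucleus. Without library 1 Mobp was at 44.7 CPM in members, against 1089 CPM in Mog+Mag nuclei, or 4.10% of the mature level. Ermn, Hapln2 and Il33 were at 0 in members, at least 17.7-fold, 12.8-fold and 16.2-fold lower than in Mog+Mag nuclei.

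**Figure D3:**
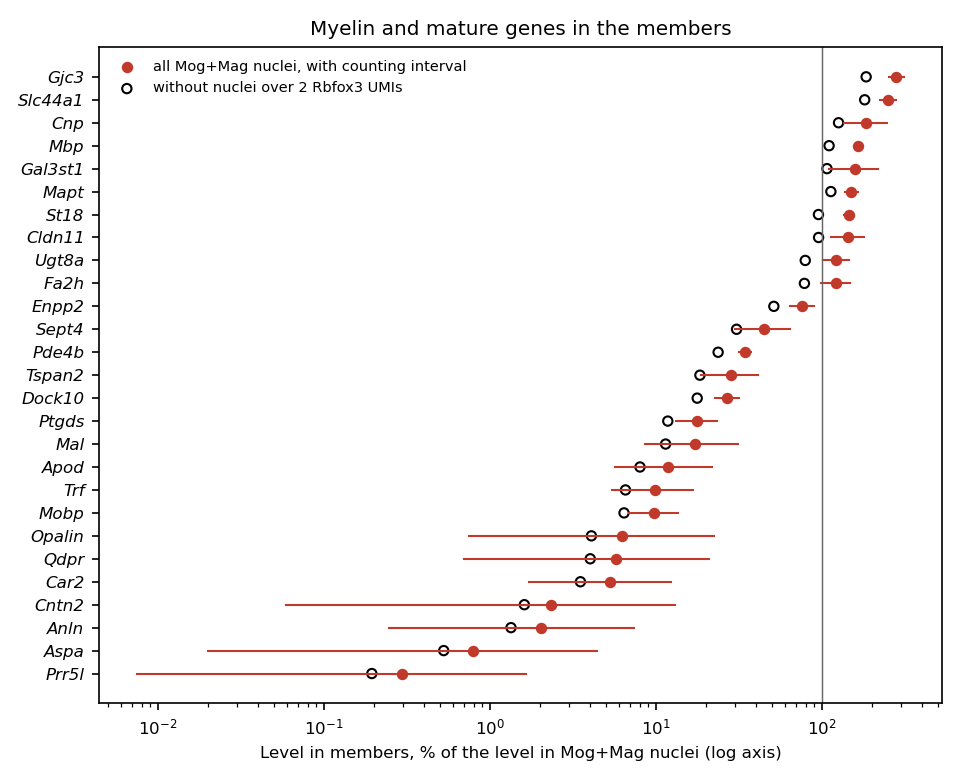
Level of the 27 myelin and mature stage genes with a UMI in members and a named value, plotted as a percentage of their level in Mog+Mag nuclei (log axis), with 95% counting intervals as lines and open circles for the same value without nuclei over 2 Rbfox3 UMIs. Genes from Cnp (185%) down to Fa2h (121%) lie within 2-fold of the 100% line, whereas Mobp (9.81%), Aspa (0.790%) and Prr5l (0.297%) lie far to the left.

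Among 25 and 27 lineage transcription factors tested against Pdgfra and Mog+Mag nuclei, 8 and 10 were higher and 8 and 8 lower, beside 13.1 and 13.4% higher and 21.9 and 21.4% lower over all genes. Without nuclei over 2 Rbfox3 UMIs 5 of 26 were lower than in Mog+Mag nuclei. Myrf, the regulator that switches on myelin genes, had 136, 152, 179 and 142 CPM in members, against 2.71, 28.03, 16.6 and 13.7 CPM in Pdgfra nuclei and 68.7, 108, 140 and 66.4 CPM in Mog+Mag nuclei. Its log2 ratio to Mog+Mag nuclei of 0.74 was under the limit for a call, and library values of the members and Mog+Mag nuclei overlapped. Sox10, which acts through the lineage, was 1.66 (log2) higher than in Mog+Mag nuclei, and Nkx2-2 3.55 higher. Sox4, Sox8 and Zfp488 were higher than in both classes, though Sox8 was within 2-fold of Mog+Mag nuclei (log2 0.88) once nuclei over 2 Rbfox3 UMIs were left out. Myt1 was at 102 CPM in members, against 329 CPM in Pdgfra nuclei and 9.08 CPM in Mog+Mag nuclei, between both. Creb5 had 5.98 CPM in members, against 130 and 185 CPM in the Pdgfra and Mog+Mag nuclei, and Nfia and Etv1 were lower than in both as well. Zfp536 was 2.38-fold higher than in Pdgfra nuclei and at 37.4% of the Mog+Mag level. Without library 4 too few UMIs were left for calls on Sox4, Sox8 and, against Mog+Mag nuclei, on Nkx2-2 (log2 2.20) and Myt1 (2.99). The call on Etv1 against Mog+Mag nuclei ended without any 1 library (log2 -0.78 to -2.79).

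Of the signalling genes, 6 of 31 were higher and 8 lower than in Pdgfra nuclei, beside 13.1 and 21.9% over all genes, and 5 of 27 were higher and 6 lower than in Mog+Mag nuclei, beside 13.4 and 21.4%. These counts are near those shares, and the genes named next are single values. Rarb, a retinoic acid receptor, had 164 CPM in members, against 33.4 and 20.7 CPM in the Pdgfra and Mog+Mag nuclei. Lgr5, a receptor that enhances Wnt signalling, had 113, 133, 254 and 94.7 CPM in members, against 54.2, 76.5, 133 and 42.9 CPM in Pdgfra nuclei and 4.18, 1.02, 2.77 and 0.604 CPM in Mog+Mag nuclei. It was 61.9-fold higher than in Mog+Mag nuclei, while libraries of members and Pdgfra nuclei overlapped. Thra, a thyroid hormone receptor, and the inhibitor Smad7 were higher than in Pdgfra nuclei alone. Ntrk3, a neurotrophin receptor, had 59.8 CPM in members, against 642 and 333 CPM in the Pdgfra and Mog+Mag nuclei, and Daam2 had 5.98 CPM, against 369 CPM in Mog+Mag nuclei.

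Receptors and channels of neurotransmission were mostly lower. Against Pdgfra nuclei 42 of 63 tested were lower and 5 higher (median log2 -1.90), beside 21.9% lower, 13.1% higher and a median of -0.06 over all genes. Against Mog+Mag nuclei 37 of 57 were lower and 5 higher (median -1.84), beside 21.4% lower, 13.4% higher and a median of -0.01. The neuronal marker sums were lower in members as well, and without nuclei over 2 Rbfox3 UMIs 33 of 58 were lower and 6 higher than in Pdgfra nuclei (median -1.45) and 22 of 51 lower and 9 higher than in Mog+Mag nuclei (median -1.04); how far neuronal RNA in the classes accounts for the rest was not tested. Kcnip4, a potassium channel subunit abundant in neurons, had 114 CPM in members, against 1828 and 4220 CPM in the Pdgfra and Mog+Mag nuclei, and its log2 ratio to Pdgfra nuclei was -1.92 in that alternative, against -4.01 with all nuclei. Kcnd2, an A-type potassium channel of precursors, had 238, 248, 358 and 189 CPM in members, against 4066, 4320, 4435 and 3295 CPM in Pdgfra nuclei, and stayed lower in it (log2 -4.12).

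Glutamate receptor genes differed in direction. Gria2, an AMPA receptor subunit, had 2323, 2516, 2804 and 2612 CPM in members, against 1747, 1695, 2166 and 1838 CPM in Pdgfra nuclei and 1044, 672, 708 and 1087 CPM in Mog+Mag nuclei. Every library of the members was above all others for Gria2, and the 2.78-fold difference from Mog+Mag nuclei was called. Gria1, Gria3, Grin2a and Grm5 were lower than in Pdgfra nuclei, by log2 -2.62, -1.73, -3.10 and -3.06, and without nuclei over 2 Rbfox3 UMIs the call on Grin2a ended (-0.97). The kainate receptor gene Grik2 had 2508 CPM in members, against 1062 CPM in Pdgfra nuclei (2.36-fold), and 2.09-fold the level of Mog+Mag nuclei. The Grik2 call against Mog+Mag nuclei ended without library 3 (log2 1.00) and without nuclei over 2 Rbfox3 UMIs (log2 0.94). Slc1a1, a glutamate transporter, had 612, 572, 626 and 616 CPM in members, against 130, 104, 185 and 105 CPM in Pdgfra nuclei and 77.7, 64.0, 50.8 and 71.2 CPM in Mog+Mag nuclei. Htr2a, the main receptor of DOI, had a UMI in 0 of 60 members (exact binomial interval 0 to 5.96%). The share was 5.23% in Pdgfra nuclei, 6.13% in Mog+Mag nuclei and 29.8% in nuclei with over 2 Rbfox3 UMIs. The interval of the members included the Pdgfra share and overlapped that of Mog+Mag nuclei (4.76 to 7.74%), so no difference from either class is read. The reporter RNA TREmcherry had a UMI in 5 of 60 members (8.33%), against 6.15% of Pdgfra nuclei, 5.18% of Mog+Mag nuclei and 10.6% of nuclei with over 2 Rbfox3 UMIs, and the driver tTA in 0 members.

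Of genes of process outgrowth and cell contact, 15 of 55 were higher and 11 lower than in Pdgfra nuclei, beside 13.1 and 21.9% over all genes, and 15 of 57 were higher and 12 lower than in Mog+Mag nuclei, beside 13.4 and 21.4%. The counts of lower genes are near those shares, and 12 genes were higher than in both classes. Map1b, a microtubule protein of growing processes, had 2504, 2725, 1894 and 1776 CPM in members, against 276, 324, 215 and 413 CPM in Pdgfra nuclei and 468, 436, 380 and 603 CPM in Mog+Mag nuclei. The semaphorin gene Sema4d and the plexin gene Plxnb3 were higher than in both classes, by log2 3.73 and 2.83 against Pdgfra nuclei and 2.50 and 1.93 against Mog+Mag nuclei. Ephb1, an ephrin receptor, had 840 CPM in members, against 71.0 and 329 CPM in the Pdgfra and Mog+Mag nuclei, and was within 2-fold of Mog+Mag nuclei (log2 0.97) without nuclei over 2 Rbfox3 UMIs. Arhgap35, Wasf1, Cadm1 and Cadm2 were higher than in both as well. The axon guidance receptor Robo1 had 22.7, 38.1, 119 and 47.4 CPM in members, against 875, 979, 821 and 799 CPM in Pdgfra nuclei and 646, 697, 524 and 904 CPM in Mog+Mag nuclei, and Tenm1 was lower than in both by log2 -4.63 and -4.21. Actb and Cfl1, general actin genes, were within 2-fold of both classes.

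Few other list genes reached the UMI limit. Of lipid genes, 4 of 11 were higher and 1 lower than in Pdgfra nuclei and 2 of 13 higher and 5 lower than in Mog+Mag nuclei, beside 13.1 and 13.4% higher and 21.9 and 21.4% lower over all genes. Elovl7, a fatty acid elongase, had 302 CPM in members, against 12.1 and 109 CPM in the Pdgfra and Mog+Mag nuclei, and its call against Mog+Mag nuclei ended (log2 0.89) without nuclei over 2 Rbfox3 UMIs. Pex5l, grouped here with the lipid genes though it does not encode a lipid enzyme, had 59.8 CPM in members, against 236 and 1614 CPM in the Pdgfra and Mog+Mag nuclei. Of division genes, Top2a, a topoisomerase of dividing cells, was at 0 UMIs in members, at least 7.65-fold lower than the 68.6 CPM of Pdgfra nuclei, and Cenpp and Pola1 were lower too. Too few UMIs were left for these 3 calls without library 4 and also without library 1. The same held for Top2a and Cenpp without library 3 and for Pola1 without library 2. Diaph3 was 1.08 (log2) higher than in Pdgfra nuclei, a call that ended at 0.88 without nuclei over 2 Rbfox3 UMIs and at 0.98 without library 3.

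Of cell death and stress genes, 1 of 10 was higher and 5 lower than in Pdgfra nuclei, and 1 of 11 was higher and 6 lower than in Mog+Mag nuclei, where 13.1 and 13.4% of all genes were higher and 21.9 and 21.4% lower. The gene higher in both was Tfeb, a lysosomal transcription factor that in mice acts in the death of premyelinating oligodendrocytes, with 147, 229, 179 and 103 CPM in members, against 8.13, 7.65, 29.8 and 5.14 CPM in Pdgfra nuclei and 35.2, 62.0, 58.1 and 28.4 CPM in Mog+Mag nuclei. The survival gene Bcl2l1 had 29.9 CPM in members, against 39.5 CPM in Pdgfra nuclei and 335 CPM in Mog+Mag nuclei, log2 -3.48 (-4.55 to -2.60) against the mature side. Of the 9 genes of the list tested in both comparisons 4 were lower than in both classes. Fkbp5, a co-chaperone of steroid receptors, had 34.0, 76.2, 29.8 and 47.4 CPM in members, against 163, 86.6, 89.4 and 120 CPM in Pdgfra nuclei and 186, 180, 176 and 182 CPM in Mog+Mag nuclei. Zbtb16, a zinc finger gene, and the steroid receptor genes Nr3c1 and Nr3c2 were the others, by log2 -2.45, -1.59 and -3.26 against Pdgfra nuclei and -3.25, -1.50 and -2.93 against Mog+Mag nuclei. These 4 genes kept their calls without nuclei over 2 Rbfox3 UMIs, and the call on Nr3c1 against Mog+Mag nuclei ended without library 4 (log2 -0.99). Sgk1 and Klf9, on the same list, were called in neither comparison.

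The members varied along the same axis that separates the classes. Summed over 28 precursor genes the members had 22684 CPM, against 30754 CPM in Pdgfra nuclei and 3284 CPM in Mog+Mag nuclei. Summed over 42 myelin genes they had 17461 CPM, against 3934 and 22762 CPM in the Pdgfra and Mog+Mag nuclei, and over 31 newly formed stage genes 33541 CPM, against 2553 and 3877 CPM. These class values give deeper nuclei more weight. Medians over single nuclei for myelin genes were 17040, 4025 and 35531 CPM in members, Pdgfra nuclei and Mog+Mag nuclei. For precursor genes they were 22296, 34951 and 1262 CPM, and for newly formed genes 32054, 2533 and 2987 CPM. Single members ranged from 7941 to 40159 CPM for precursor genes, from 5486 to 35380 CPM for myelin genes and from 7664 to 63822 CPM for newly formed genes. Across the 60 members the precursor sum correlated with the myelin sum at Pearson r = -0.49 (Spearman rho -0.41) and with the newly formed sum at r = -0.50 (rho -0.51), and the newly formed and myelin sums at r = 0.72 (rho 0.66). These are descriptions over nuclei that share libraries, and each sum is a share of 1 nucleus's total, so a high sum leaves less for the others. The newly formed sum also correlated with depth (r = 0.34).

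**Figure D4:**
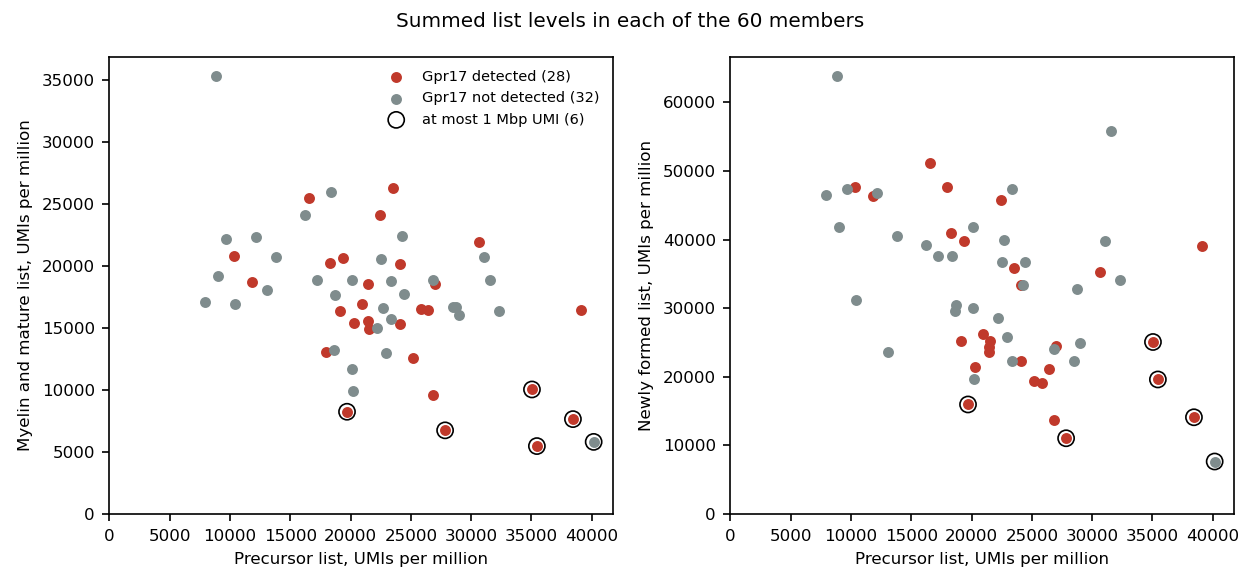
Summed level (CPM) of the precursor list (x axis) against the myelin and mature list (left) and the newly formed list (right) in each of 60 members; red points had a Gpr17 UMI, grey points had none, and ringed points had at most 1 Mbp UMI. Points run from low precursor and high myelin sums at the upper left to the opposite at the lower right. The 6 ringed nuclei have myelin sums of at most 10053 CPM, and 5 of them lie above the median precursor sum of 22296 CPM and 1 under it. Mbp is on the myelin list, so the low myelin sums of the ringed nuclei follow in part from how they were chosen.

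Split by Gpr17, the 28 members with a UMI and the 32 without had similar depth (median 5646.5 and 5358 UMIs). Both sets came from all 4 libraries, with 10, 4, 6 and 8 members with a UMI and 10, 5, 4 and 13 without. Of 1624 genes tested, 84 were higher in members with a Gpr17 UMI (5.17%) and 28 lower (1.72%) by the same size of difference. The 84 include Gpr17 itself, which is higher by construction. Gpr17 is itself part of the score, so members without it were chosen on the other markers. How far this choice shaped the differences between the sets was not tested. Gfra1, a receptor of glial cell line-derived factors, had 224 CPM in members with a Gpr17 UMI, against 17.3 CPM without (log2 3.70, 2.04 to 6.04), and the precursor genes Ptprz1, Xylt1 and Dscam had 623, 616 and 1955 CPM, against 201, 242 and 863 CPM. Of 16 precursor genes tested, 4 were higher with a Gpr17 UMI and 0 lower (median log2 0.51, beside 0.05 over all 1624 genes). Gpr17 itself is among the 16 and the 4 and enters the median, and its direction was fixed by the split. The others called higher were Ptprz1, Xylt1 and Dscam. Tnr was at log2 0.01 and Lhfpl3 at -0.37. Tspan2, Smad7 and Pik3r3 were lower with a Gpr17 UMI, at 18.7, 37.4 and 2696 CPM, against 144, 230 and 5908 CPM without. These genes were picked after their values were seen. The summed precursor level was 24430 CPM with a Gpr17 UMI and 21071 CPM without, the myelin sum 16374 and 18465 CPM, and the newly formed sum 30214 and 36614 CPM; the ranges over single nuclei overlapped widely. Most Gpr17 detections rest on few UMIs: after each nucleus was thinned to 1000 UMIs, 5 of 60 members had one.

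There were 6 members with at most 1 Mbp UMI, a set chosen after its values were seen, and 5 of them had a Gpr17 UMI. Tcf7l2 was at 979 CPM in the 6, against 2669 CPM in the other 54, and Ptprz1 at 893 CPM, against 347 CPM. Of the 34 Tcf7l2 UMIs in the 6, 25 came from 1 nucleus, and the other 5 nuclei had 9 UMIs (374 CPM). Frmd4a had a UMI in 3 of the 6 and in 54 of the other 54, and 163 of its 167 UMIs in the 6 came from the same nucleus. Tnr, at 11289 and 10646 CPM, and Fyn, at 3600 and 3470 CPM, were alike in both sets. Depth was also alike, with medians of 4812 and 5469.5 UMIs.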

How the data were processed

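Per the labels and the file headers, the authors deposited 1 pooled matrix of UMI counts from 10x Genomics 3' chemistry, whole numbers per gene and barcode, made with Cell Ranger 7.1.0 on mm10 with 2 added transgene features, per the submitters' processing notes. The 4 libraries held 5721, 5278, 3076 and 8327 barcodes and 40322155, 39336793, 19968985 and 57947155 UMIs. How barcodes were chosen is not given in the sources used here. The filters removed 9132 barcodes, 8638 of them above the mitochondrial limit. Doublet scores came from Scrublet in scanpy 1.11.5, per library, and removed no barcode.

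Comparison classes left out the members and 11 nuclei that met both definitions. CPM are the UMIs of a gene summed over a class, or over its nuclei of 1 library, per 1000000 UMIs of the same nuclei. Ratios carry exact conditional binomial 95% intervals and shares exact binomial ones, all for counting error only. A class at 0 was given a floor of 3 UMIs. Genes eligible to be named were those of the rule, the 15 largest called per direction and comparison, the 20 highest and 10 lowest against both classes, and at most 6 called genes per list, direction and comparison, with any list gene whose role is described. The members and lists were chosen with earlier results of these data known. Calls were checked on simulated counts with known changes. Positions and overlaps came from GENCODE vM21. Python 3.11.15, numpy 2.4.6, scipy 1.17.1, pandas 2.3.3 and matplotlib 3.10.9 were used. Alternatives changed the number of members, the filters, the scaling, the gene filter, depth, libraries and the size of a call.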

Additional observations from a re-analysis of the deposited data

Results flagged for a closer look

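Of 38 values checked for a library far from the others, 1 stood out: Ust in members, at 3580 CPM in library 3, against 2119, 2211 and 2352 CPM in the other libraries. The gap to the nearest library was large for the range of the 4 values. Such a check picks out about 1 in 20 groups by chance. Library 3 held 10 members, and Ust was higher in members than in both comparison classes in all 4 libraries.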

How the results depend on the processing

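Of 155 summary values under 23 alternatives, 2 of them added after the data were seen, 121 stayed within 1.5 times or their interval; the cause of the changes was not tested beyond what a setting's construction shows. The main counts were 1372 genes called against Pdgfra nuclei, 1361 against Mog+Mag nuclei, 344 higher than both, 443 lower than both and 329 list calls. With at most 1% mitochondrial UMIs these were 626, 302, 41, 2 and 108, and the members were 0.857, 0.974, 3.08 and 1.66% of kept nuclei in libraries 1 to 4. In that setting 10 of the 60 members were shared, 22 had over 2 Rbfox3 UMIs, and the classes held 24 and 96 nuclei. Without the 25 members that met a class definition, the counts were 771, 834, 213 and 227 and the shares in libraries 1 and 3 were 0.256 and 0.188%. A minimum of 50 UMIs per gene gave 747, 725, 226 and 212, and no minimum gave 3470 and 3760 called and 1618 lower than both. A minimum of 10 UMIs gave 688 lower than both. Nuclei thinned to 1000 UMIs gave 371, 345, 125 and 36, with 147 list calls. At 3-fold 202 genes were higher than both. Without nuclei over 2 Rbfox3 UMIs 223 were lower than both, and the shares in libraries 1, 3 and 4 were 0.834, 1.28 and 1.37%. Leaving out 1 library gave 285 to 423 genes lower than both (285 without library 4).

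For 159 genes the alternatives gave 7179 values: 6565 kept direction and call, 505 lost the call (133 at 1% mitochondrial UMIs, 107 when thinned), 82 gained one and 27 changed sign, each at 1% mitochondrial UMIs. On the log2 scale against Pdgfra nuclei these were Neu4 -0.64, Tnr -0.25, Apod 2.29, Zfp488 -0.80, Nfib 0.47, Myt1l 0.022, Ntrk2 0.085, Ntrk3 0.21, Slc1a1 -0.028, Gria1 0.48, Gria3 0.080, Grin2a 0.61, Grm5 0.16, Kcnip4 0.99, Epha4 -0.26, Robo1 0.26, Pex5l 1.76, Diaph3 -0.52 and Fkbp5 0.25. Against Mog+Mag nuclei they were Nfia 0.18, Nfib 0.048, Ntrk3 0.11, Kcnd2 0.49, Epha4 -0.27, Robo1 0.11, Fkbp5 0.37 and Nr3c2 0.11.

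No paired analysis was possible because the pooled matrix has no map from barcodes to samples. The 60 members held 334461 UMIs in all, so genes of low level rest on few UMIs, and 1 UMI equals 2.99 CPM.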
